A study of Mus musculus with 2 samples.

Results

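The multi-synthetase complex is an assembly of cytosolic aminoacyl-tRNA synthetases, the enzymes that load amino acids onto their tRNAs, held together by scaffold proteins. 10 of its genes were examined for ATF4 binding, out of 21887 protein-coding genes in the RefSeq gene table of GRCm38.p6. They were taken by name. 8 encode enzymes (Eprs, Iars, Lars, Mars1, Qars, Rars, Kars and Dars) and 2 encode scaffold proteins (Aimp1 and Aimp2). Binding was measured by CUT&Tag, in which an antibody brings a transposase to the protein of interest so that nearby DNA is cut and tagged. The neurons were primary cultures from the cortex and hippocampus of embryonic C57BL/6 mice, and 1 library was made with the ATF4 antibody and 1 with control IgG. The labels give no treatment for either library, and whether these neurons had received hemin, a blood breakdown product applied elsewhere in the study, is not given in the sources used here. Only the peak list of the ATF4 library was analysed here, so there is no replicate error, no comparison with IgG, and no measure of expression by which the neuronal label could be checked.

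ATF4 is a basic leucine zipper transcription factor whose protein is made when the kinase PERK and related kinases phosphorylate eIF2. It pairs with C/EBP proteins on composite sites and is known for switching on genes of amino acid uptake, amino acid synthesis and tRNA charging. In the complex, each enzyme serves its own amino acid, except the fused enzyme of Eprs, which charges glutamate and proline tRNAs. Aimp1 and Aimp2 carry no synthetase activity and hold the enzymes in place.

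ATF4 peaks were listed at most enzyme genes of the complex and at neither scaffold gene. 7 of the 8 enzyme genes (87.5%, Clopper-Pearson 95% interval 47.3% to 99.7%) had a peak summit in the gene body or in the 10 kb on either side, against 24.8% of all protein-coding genes and 24.7% of the 11712 that were no shorter and no longer than the members (7.14 to 66.9 kb). Neither scaffold gene had one (0 of 2, interval 0% to 84.2%). 4 enzyme genes, Iars, Mars1, Eprs and Lars, carried a tall peak close to a gene end or start, with fold enrichments of 15.7 to 19.6. At Rars, Kars and Qars the strongest peak held 7 fragments or fewer, and Dars had none. With 8 genes against 2 the difference between enzymes and scaffold genes was not tested, and the members were not drawn at random from the genome.

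The sequences of the promoters show where the ATF4 site letters occur. They are RefSeq promoters of GRCm38.p6 (300 bases each, from 250 before to 50 after an annotated start), which were given for 8 of the 10 members and not for Lars and Rars. The letters TGATGNAA, the core of the C/EBP-ATF composite site with N for any base, were searched on both strands. They occurred in 3.97% of all 32851 promoters and in 1 of the 8 member genes with a promoter, Iars. The stretches below run from 130 bases before to 20 after the start, 5′ to 3′ on the strand of the gene, for 3 genes with a tall peak and for the scaffold genes. Capitals mark the match.
Iars, plus strand, chr13:49682000-49682149: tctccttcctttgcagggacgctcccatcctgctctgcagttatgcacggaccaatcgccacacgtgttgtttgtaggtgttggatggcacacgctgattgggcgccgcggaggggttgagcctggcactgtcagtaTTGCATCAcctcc
Mars1, minus strand, chr10:127311767-127311916: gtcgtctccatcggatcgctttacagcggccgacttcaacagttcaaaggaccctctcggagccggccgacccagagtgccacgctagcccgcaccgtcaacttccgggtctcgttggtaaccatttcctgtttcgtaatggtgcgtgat
Eprs, plus strand, chr1:185362914-185363063: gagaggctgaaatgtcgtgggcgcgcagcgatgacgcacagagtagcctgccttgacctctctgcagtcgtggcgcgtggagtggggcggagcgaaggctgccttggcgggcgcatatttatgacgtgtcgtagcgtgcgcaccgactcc
Aimp1, minus strand, chr3:132684371-132684520: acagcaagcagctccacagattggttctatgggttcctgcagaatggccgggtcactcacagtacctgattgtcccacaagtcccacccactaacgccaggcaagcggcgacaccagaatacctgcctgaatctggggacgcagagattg
Aimp2, minus strand, chr5:143909820-143909969: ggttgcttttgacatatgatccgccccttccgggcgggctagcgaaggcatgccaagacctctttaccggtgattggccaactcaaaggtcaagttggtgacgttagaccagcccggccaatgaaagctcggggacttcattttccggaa
In Iars the match read on the opposite strand, from base 8 to base 15 after the start, counting the start as base 1, and lay 22 bp from the peak summit. Mars1 and Eprs had no match in their promoters. Their summits lay 105 and 200 bp after the start, beyond the last base of the promoter entry, so the letters under those summits were not read. No match occurred in Aimp2, at either annotated start of Aimp1, or in Qars, Kars or Dars. The G and C content of the member promoters, 52.3% to 66.0%, spanned the median of 56.3% over the promoters of protein-coding genes.

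Each peak below is given with its position in the deposited list, the authors' fold enrichment over the background that the peak caller estimated, its q-value and its rank by q-value among the 7873 peaks of the library. The number of fragments stacked at the summit was solved from the fold enrichment and p-value, and its exact Poisson 95% interval covers counting error only.

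Iars, the isoleucine enzyme, had the strongest peak of the complex, on chromosome 13 at 49681824-49682693. It was enriched 19.6-fold (q = 3.20e-70) with 72 fragments (56.3 to 90.7), rank 36. The summit lay 15 bp before the annotated start. A further peak inside the gene, from 49725812 to 49725982, held 4 fragments (1.09 to 10.2) and ranked 4272. At Iars the strong signal was thus at the start alone.

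Mars1 encodes the methionine enzyme, which also loads the initiator tRNA. Its main peak, on chromosome 10 at 127311105-127312026, was enriched 15.7-fold (q = 6.07e-59), with 69 fragments (53.7 to 87.3) and rank 44. The summit was inside the gene, 105 bp after the start. A smaller peak from 127312231 to 127312476, 617 bp before the start, had 21 fragments (13.0 to 32.1), a fold enrichment of 4.96 and rank 813. An end of the pseudogene Gm6283 lay slightly nearer to that summit than the Mars1 start did.

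Eprs had a single peak, on chromosome 1 at 185362954-185363773, which was enriched 18.7-fold (q = 1.51e-44) and had 43 fragments (31.1 to 57.9) and rank 59. The lower end of Eprs in the gene table lies 1627 bp before the start given by the promoter table. The summit was 1827 bp from that end but 200 bp after the annotated start, so a count of peaks within 1 kb of gene ends leaves Eprs out.

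Lars, the leucine enzyme, had its peak on chromosome 18 at 42261839-42262258, enriched 17.3-fold (q = 3.39e-39) with 39 fragments (27.7 to 53.3) and rank 67. The summit was inside the gene, 140 bp from its upper end. A second peak inside Lars, from 42216265 to 42216431, held 5 fragments (1.62 to 11.7) and ranked 2063.

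By fragments the order was Iars, Mars1, Eprs and Lars. The intervals of Iars and Mars1 overlapped, as did those of Eprs and Lars, those of Mars1 and Eprs, and, between 56.3 and 57.9, those of Iars and Eprs. Iars and Mars1 lay above Lars without overlap, Mars1 by a margin of 53.7 against 53.3. Fold enrichment gave another order, with Eprs and Lars above Mars1. The estimated backgrounds at these 4 summits, 1.31 to 3.47 expected fragments, were above the median of 0.155 over all peaks, and the order by fold enrichment takes this background into account. How the peak caller estimated the background is not given in the sources used here. Whether the estimate holds signal of the peaks themselves is therefore not known.

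**Figure D1:**
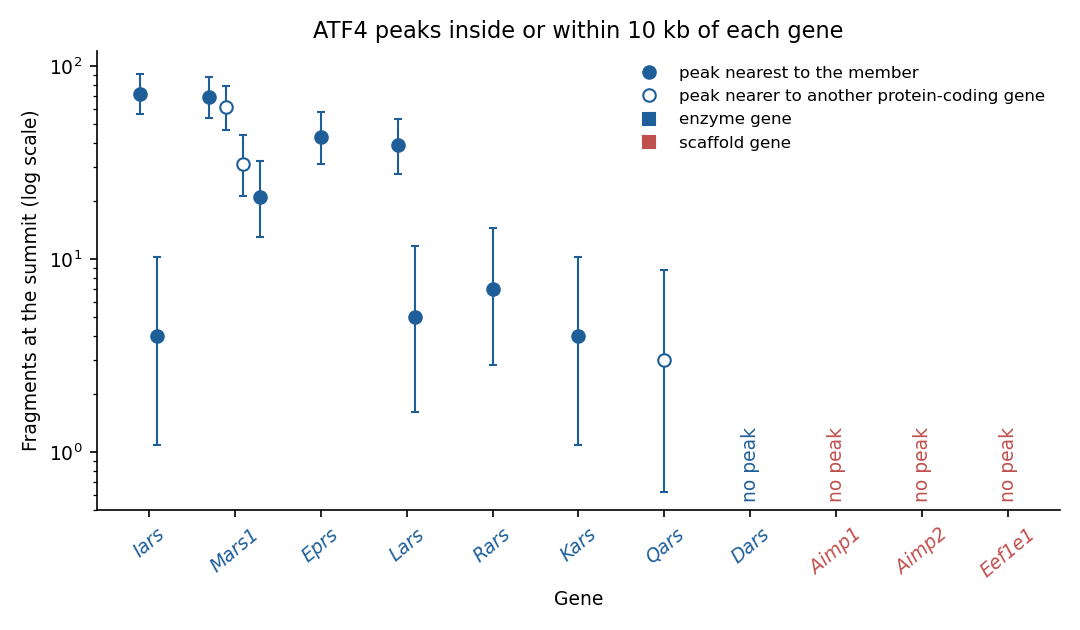
Fragments at the summit (log scale) of each ATF4 peak inside or within 10 kb of the 10 member genes and of Eef1e1. Points are single peaks of 1 library, bars are exact Poisson 95% intervals (counting error only), open points are peaks nearer to another protein-coding gene, and label colour separates enzyme from scaffold genes. Iars, Mars1, Eprs and Lars have peaks of 39 to 72 fragments, while Dars and the scaffold genes have none.

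Of the other enzyme genes, Rars, Kars and Qars had weak peaks. Rars, the arginine enzyme, showed 1 peak, at 35832115-35832661 of chromosome 11, enriched 5.95-fold (q = 2.45e-05) with 7 fragments (2.81 to 14.4) and rank 1683. Its summit was 2099 bp inside the upper end of the gene. Its interval did not overlap that of any of the 4 tall peaks. At 547 bp the called region was nonetheless wider than that of Lars (420 bp).

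Kars, the lysine enzyme, showed 1 peak, at 111996086-111996272 of chromosome 8, with 4 fragments (1.09 to 10.2), enriched 4.46-fold (q = 0.000535) and rank 3178. The summit lay 2.79 kb from the 3′ end, inside the gene. The start of Kars is 5 bp from an end of Terf2ip, a telomere protein gene, and no peak lay within 1 kb of it. Qars, the glutamine enzyme, had its only peak outside the gene, at 108516598-108516766 of chromosome 9, with 3 fragments (0.619 to 8.77), enriched 3.62-fold (q = 0.00450) and rank 5789. That summit was 667 bp beyond the 3′ end of Qars and 374 bp from an end of Qrich1, which was the nearer gene. Both peaks were near the lower limit of the list, in which the smallest peak has 3 fragments, and neither was within 1 kb of the start of its own member gene.

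Dars, the aspartate enzyme, had no peak inside the gene or within 10 kb, and its nearest peak on the chromosome was 187 kb away. The lack of a peak means that nothing passed the peak caller's threshold there, not that binding was absent.

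**Figure D2:**
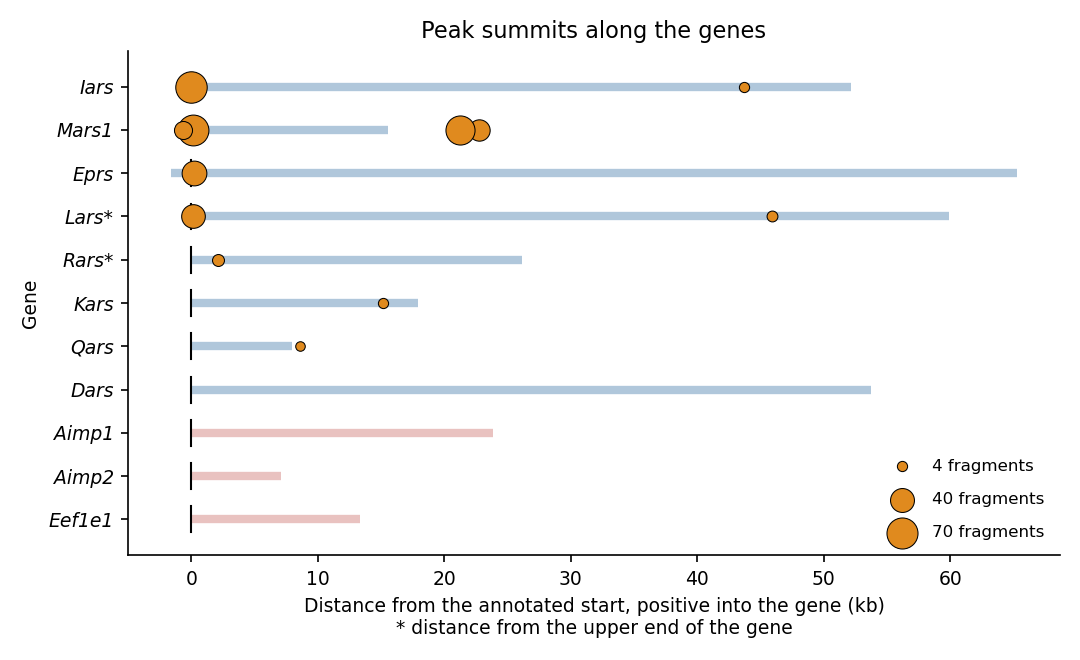
Peak summits (circles, area growing with fragments at the summit) along the member genes and Eef1e1 (bars). The x axis is the distance in kb from the annotated start, positive into the gene, and for Lars and Rars, marked by an asterisk, from the upper end of the gene. The tall peaks of Iars, Mars1, Eprs and Lars sit within 200 bp of 0, and the small ones of Kars and Qars towards the far end.

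Among the 7873 peaks, 67 (0.851%) were at least as strong by q-value as the Lars peak, and the tall peaks of the 4 enzymes are among them. Of these 67, 31 lay with the summit 1 kb or less from an annotated start or end of a protein-coding gene. Among the 1706 peaks so placed, Iars ranked 8, Mars1 14, Eprs 25 and Lars 31. The tall peaks were also wide, at 420 to 922 bp, where the median peak was 207 bp.

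**Figure D3:**
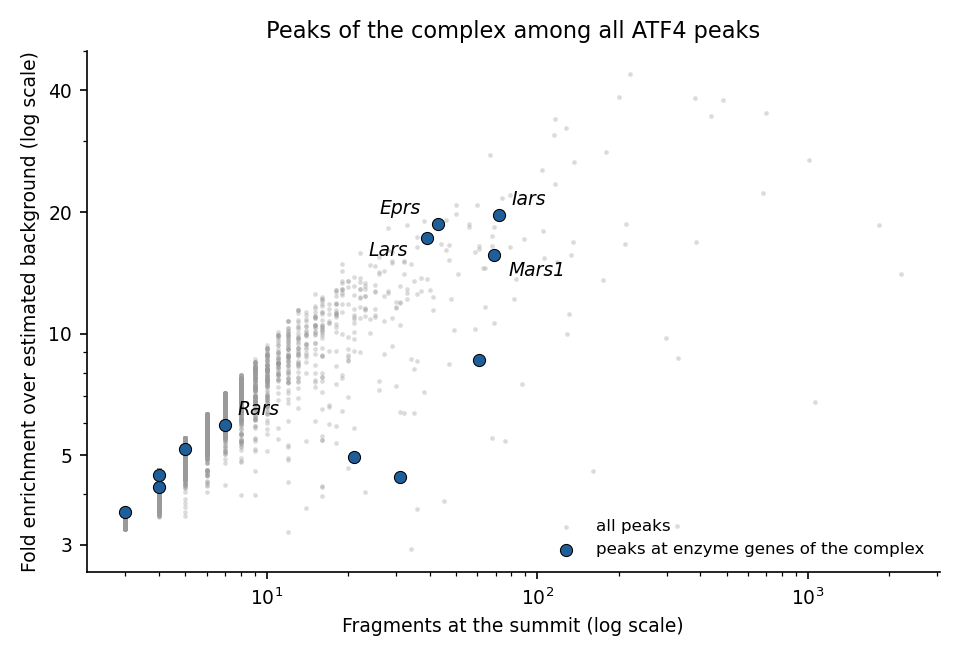
Fold enrichment against fragments at the summit (both log scales) for all 7873 peaks of the ATF4 library (grey) and the 12 peaks inside or within 10 kb of the enzyme genes (blue). The peaks of Iars, Mars1, Eprs and Lars, at fold enrichments of 15.7 to 19.6, lie near the upper edge, and that of Rars lies with the bulk of peaks of 7 fragments.

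Both scaffold genes of the list were without a peak, and so was Eef1e1, which encodes the remaining scaffold protein of the complex and was examined beside the members. Most protein-coding genes also lacked a peak inside or within 10 kb, as 24.8% of them had one. The peak nearest to Aimp1 (chromosome 3, 132660498 to 132684390) lay 57.0 kb away, from 132741314 to 132741559, inside Tbck, with 3 fragments (q = 0.00700). The upper end of Aimp1 overlaps the neighbouring gene Tbck, whose end is 277 bp away. The peak nearest to Aimp2 (chromosome 5, 143902704 to 143909839) lay 40.1 kb away, from 143949831 to 143950140, inside Pms2, a DNA mismatch repair gene, with 3 fragments (q = 0.0289). Aimp2 sits between Eif2ak1, which encodes the heme-regulated eIF2 kinase, with ends 13 bp apart, and Pms2, with ends 62 bp apart. Neither neighbour contributed a peak within 10 kb of Aimp2. For Eef1e1 (chromosome 13, 38645691 to 38659028) the nearest peak was 235 kb away. Dars was the only enzyme gene that, like these 3, had no peak in its window.

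Mars1 lies beside Ddit3, the gene of the stress transcription factor CHOP, and the 10 kb window of Mars1 took in 2 peaks that were nearer to other protein-coding genes. The genes run towards each other and share 71 bp at their 3′ ends, with their starts 21.0 kb apart. The peak at 127290205-127291188 had 61 fragments (46.7 to 78.4), an 8.60-fold enrichment (q = 1.70e-34) and rank 74, and its summit was 232 bp before the start of Ddit3, inside Mbd6. The peak from 127289014 to 127289649 had 31 fragments (21.1 to 44.0), a fold enrichment of 4.43 and rank 503, and its bounds took in the annotated start of Mbd6, at 127289018 on the minus strand. Its summit, at 127289051, was at -1742 bp from the Ddit3 start, so Mbd6 had the nearer start. The interval of the peak at the Mars1 start (53.7 to 87.3) overlapped that of the Ddit3 peak, so these peaks could not be ranked by fragments. Their fold enrichments differed, 15.7 against 8.60, with an estimated background of 3.47 expected fragments at Mars1 and 6.21 at Ddit3. Without the peaks nearer to another protein-coding gene (both of these and that of Qars), 9 of the 12 member peaks were left, at 6 enzyme genes. By the same rule 18.8% of all protein-coding genes had a peak.

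**Figure D4:**
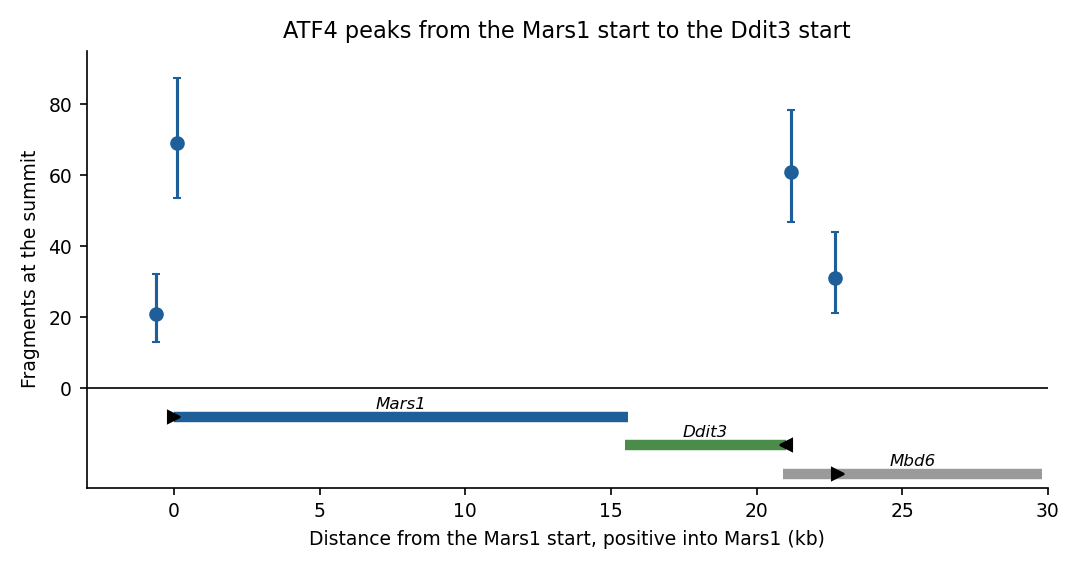
Fragments at the summit of the 4 peaks from the Mars1 start to beyond the Ddit3 start, with exact Poisson 95% intervals (counting error only), against the distance in kb from the Mars1 start. Bars under the axis are genes, and arrowheads mark their annotated starts and direction. The peaks of 69 and 61 fragments sit at the starts of Mars1 and Ddit3, 21.0 kb apart.

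The enzyme genes were also counted by stricter rules, which did not all pick the same genes. When only peaks with a −log10 q of 5 or more were counted, 4 of the 8 enzymes (those with tall peaks) and neither scaffold gene had a peak within 10 kb, against 6.21% of all protein-coding genes. Within 1 kb of a gene end, 4 members had a peak (Iars, Lars, Mars1 and, at its 3′ end, Qars), against 8.13%. Within 1 kb of an annotated start, 3 of the 6 enzyme genes with a promoter entry had one (Iars, Mars1 and Eprs, while Lars and Rars could not be counted), against 8.2% of the 17492 protein-coding genes with an entry. Neither scaffold gene had a peak by any of these rules.

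The other synthetase genes were counted in the same way. Of 12 free cytosolic synthetase genes, whose enzymes act outside the complex, 9 (75.0%) had a peak within 10 kb, and the same number had one at this stricter q-value, beside the same shares of all protein-coding genes, 24.8% and 6.21%. Tars, Cars and Yars, the enzymes of threonine, cysteine and tyrosine, had the strongest gene-end peaks of that list, with 69 (53.7 to 87.3), 63 (48.4 to 80.6) and 64 (49.3 to 81.7) fragments and ranks 39, 54 and 58. All 3 intervals overlapped those of Iars and Mars1. Their fold enrichments were 18.4, 14.5 and 11.6, so that of Tars lay inside the range of the tall peaks of the complex and the others below it. Aars, the alanine enzyme, has its strongest peak at an annotated start that lies away from the gene end, with 89 fragments, a fold enrichment of 17.1 and rank 34 by q-value, ahead of all 4 tall peaks of the complex. Farsa, Hars and Wars had no peak within 10 kb. Of 17 mitochondrial synthetase genes, 5 (29.4%, 10.3% to 56.0%) had a peak within 10 kb, beside 24.8% of all protein-coding genes, and 1 (5.88%) had one at the stricter q-value, beside 6.21%. Within 1 kb of an annotated start it was 3 of 14 (21.4%, 4.66% to 50.8%), beside 8.2%. The gene-end peaks of Rars2 and Nars2 held 4 fragments each. The mitochondrial synthetases of the same amino acids as the tall-peak enzymes, Iars2, Mars2, Lars2, Ears2 and Pars2, had none within 10 kb. This was also so for most protein-coding genes, of which 24.8% had one.

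Of 28 ATF4 response genes named from general knowledge, 24 (85.7%) had a peak within 10 kb, beside 24.8% of all protein-coding genes, and 21 (75.0%) had one at the stricter q-value, beside 6.21%. The list includes Psat1, Phgdh, Shmt2, Mthfd2 and Aldh1l2, for which the study itself reported ATF4 peaks by CUT&Tag in neurons. Peaks at those genes were thus known in advance, and the shares of this list are not an independent comparison. The strongest gene-end peaks of the whole list were at Herpud1, an ER degradation factor (106 fragments, 86.8 to 128), at Ddit3 (61 fragments) and at Slc7a1, a transporter of cationic amino acids (49 fragments, 36.3 to 64.8). Slc7a5, a leucine transporter gene, had a stronger peak away from its gene ends, at rank 27. By fragments the tall peaks of the complex lay inside the range of these genes. By fold enrichment, 15.7 to 19.6, they were above the 15.4 of Herpud1, the highest of the gene-end peaks in this list, though Mars1 by little, and with no replicate to give an error for it. The shares of the lists were not tested against each other.

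**Figure D5:**
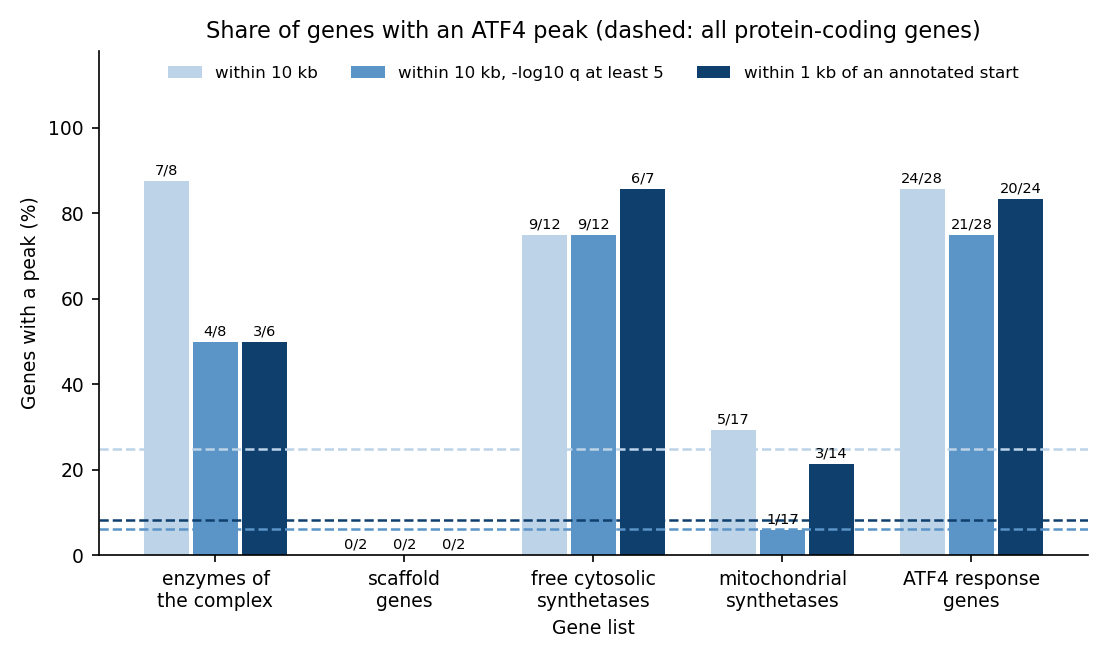
Share of genes with an ATF4 peak (y axis, %) in each gene list by 3 rules, with the number of genes above each bar. Dashed lines give the share of all protein-coding genes by the same rule (24.8%, 6.21% and 8.2%). The enzymes of the complex, the free cytosolic synthetases and the ATF4 response genes are above these lines, the mitochondrial synthetases are at 29.4%, 5.88% and 21.4%, and the scaffold genes are at 0.

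The site letters were also counted in the promoters of the other lists. TGATGNAA occurred in 4 of the 7 free cytosolic synthetase genes with a promoter entry, beside 1 of 8 members, 9 of 24 ATF4 response genes and 0 of 14 mitochondrial synthetases. Over all 32851 promoters the share was 3.97%. That share counts single promoters, whereas a gene of a list was counted if any of its promoters held a match. The matches of the synthetase genes are shown with 6 bases on either side, in capitals, to set the Iars match beside them.
Iars: tcagtaTTGCATCAcctcca
Tars: gtcccgTTGCATCAgctggt
Aars, before the start: tgagcaTTGCATCAgccgag
Aars, after the start: gtcactTTTCATCAgagcgc
Gars: gcgctaTTTCATCAtgcacc
Yars: ctcagcTGATGCAAcccgac
The matches of Iars, Tars and the first of Aars were the same 8 letters, TTGCATCA. That of Yars was their reverse complement, and Gars and the second of Aars differed from them by the free base. The distance from the match to the nearest summit was 22 bp at Iars, 29 bp at Tars, 39 bp at the first match of Aars, 160 bp at its second, 7 bp at Gars and 123 bp at Yars. A match describes these letters and is not a measured site, and the counts of the lists were not tested against each other.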

How the data were processed

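1 CUT&Tag library with the ATF4 antibody was analysed. The IgG library was not analysed here. The submitters' processing notes name FastQC, BWA, MACS2 2.1.2, deepTools and the build mm10, without roles or parameters, and the use of IgG in peak calling is not given in the sources used here. The deposited list holds, for each peak, its position and summit, a fold enrichment (a ratio to the estimated background), −log10 values of p and q (p-value and q-value), and a score. In all 7873 peaks the deposited score was the integer part of 10 times −log10 q, so it was not used as a measure of its own.

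Fragments were solved from the fold, taken as fragments plus 1 over background plus 1, and the p-value, taken as a Poisson upper tail, to within 0.001 of the −log10 p. All 7873 peaks were solved, 35 of them with more than 1 solution and none of these at a member. Whether the peak caller stacked fragments or reads is not given in the sources used here. On 2000 simulated peaks the solution was tested, and 100% were recovered. These peaks were simulated by the same formulas for fold and p-value. The check therefore covers the solving, and not whether the deposited values follow the formulas. The total depth of the library is not in the list. PCR copies are not independent molecules.

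Peaks were joined to RefSeq genes by their summits, on the same assembly as mm10. Starts and strand came from the RefSeq promoter table. Members, lists, windows and the motif were chosen with earlier results of these data known. Named genes were all members, Eef1e1, the 3 strongest gene-end peaks of each comparison list, and genes nearer to a member peak or with an end within 1 kb of it; the synthetase genes with a motif match and those without a peak, Slc7a5, and the neighbours of members or of their nearest peaks (Terf2ip, Tbck, Eif2ak1 and Pms2) were named after their values were seen. Alternatives were other windows, stricter peaks, overlap in place of the summit, assignment to the nearest protein-coding gene, gene starts, looser and stricter motif letters, and other ranks. Tables were handled with pandas 2.3.3 and numpy 2.4.6 in Python 3.11.15, Poisson and binomial intervals came from scipy 1.17.1, and plots from matplotlib 3.10.9.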

Additional observations from a re-analysis of the deposited data

How the results depend on the processing

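Within 10 kb, 5 to 7 members had a peak under 5 of the 6 alternatives, against 7 as reported, and 4 with a −log10 q of at least 5, all of them enzymes. The scaffold count was 0 under all 6. The 12 peaks at members became 7 with summits inside the gene only, 7 with the stricter q, and 8 to 13 otherwise. The share of all protein-coding genes, 24.8% as reported, was 14.4% inside genes, 19.4% within 3 kb, 6.21% with the stricter q, 8.35% with at least 6 fragments and 18.8% by nearest protein-coding gene.

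The 4 members with a gene-end peak became 7 within 3 kb and 3 or 4 otherwise. With the annotated start in place of the gene end, an alternative chosen after the data were seen, Eprs entered and Qars left. Lars, which has no annotated start here, was kept in that count by its gene end, and without it the members were Eprs, Iars and Mars1. The share of all protein-coding genes with a gene-end peak, 8.13% as reported, was 6.65% within 500 bp, 11.3% within 3 kb, 2.74% with the stricter q, 3.74% with at least 6 fragments and 7.6% at the end that holds the start (either end where no start is given). With 1 mismatch allowed, 3 members and 50.7% of all promoters held the motif. With C as the free base, 0.895% of promoters did. By fold enrichment Iars ranked 22, Eprs 26 and Lars 36, and by fragments Rars ranked 946. No paired analysis was possible because each antibody has 1 library and only that of ATF4 was used. With 1 library and no total depth, a weak site cannot be told from its absence.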
